A study of Mus musculus with 16 samples.

Results

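The simple epithelial keratins Krt8, Krt18, Krt19 and Krt20 were followed through the peaks of H3K27ac, the acetylation of lysine 27 of histone H3 found at active promoters and enhancers, at their loci in mouse small-intestinal epithelium. The 4 genes lie in 3 windows of the mouse genome build mm9: Krt8 and Krt18 share chr15:101820000-101870000, Krt19 lies in chr11:99985000-100025000, and Krt20 in chr11:99275000-99310000. The members were chosen by a measured value, the presence of a called peak that overlaps one of these windows in any of the 8 libraries, and the loci were picked with earlier results of these data known. They were 207 peaks of 369142 in all: 99 at Krt8 and Krt18, 69 at Krt19 and 39 at Krt20, with 18 to 39 in a library.

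Chromatin immunoprecipitation and sequencing (ChIP-seq) was done on 4 groups of sorted cells with 2 libraries each, described by the series as biological duplicates. The embryonic groups, E12.5 and E14.5, were small-intestinal cells positive for the epithelial surface protein EpCAM and negative for CD31, CD45 and the dead-cell dye DAPI. The adult groups came from male Lgr5EGFP-Cre-ERT mice of postnatal day 60: intestinal stem cells (ISC), sorted for high GFP from the Lgr5 allele, and enterocytes, sorted by the same surface gate as the embryonic cells. All animals were of mixed C57BL/6 CD1 strain. No sex is stated for the embryonic samples. The enterocyte gate takes any EpCAM-positive epithelial cell and has no marker of the absorptive lineage. No mm9 annotation was used here, so the cell types could not be checked against markers other than the keratins, and no peak is assigned to a gene's start.

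Keratins are the intermediate filament proteins of epithelial cells, and each filament pairs a type II keratin with a type I keratin. In simple epithelia such as the gut lining, Krt8 is the type II partner, and Krt18, Krt19 and Krt20 are type I partners. Krt8, Krt18 and Krt19 are found from the crypt to the villus, whereas Krt20 is known as a keratin of differentiated villus cells and is widely used to mark them.

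The promoters are shown because active promoters are among the places where H3K27ac is found. No peak was assigned to them, and a link between these sequences and the peaks was not tested. RefSeq promoters on GRCm38.p6 were matched for 3 of the 4 members: Krt8 (chr15:102004343-102004592, minus strand), Krt18 (chr15:102027966-102028215, plus strand) and Krt20 (chr11:99438154-99438403, minus strand). Krt19 is named only. Each line gives the 250 bases before the start of the gene, 5′ to 3′, and capitals mark the matches to TATAAA and AGATAA on either strand.
Krt8: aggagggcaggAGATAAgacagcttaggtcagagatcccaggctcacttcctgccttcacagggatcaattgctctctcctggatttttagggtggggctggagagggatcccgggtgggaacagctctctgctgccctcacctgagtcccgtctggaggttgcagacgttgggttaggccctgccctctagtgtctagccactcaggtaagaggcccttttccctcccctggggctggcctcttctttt
Krt18: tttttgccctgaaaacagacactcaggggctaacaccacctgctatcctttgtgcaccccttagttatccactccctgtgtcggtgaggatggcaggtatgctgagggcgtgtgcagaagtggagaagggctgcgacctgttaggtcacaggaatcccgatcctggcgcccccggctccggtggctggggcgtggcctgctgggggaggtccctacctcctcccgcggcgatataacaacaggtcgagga
Krt20: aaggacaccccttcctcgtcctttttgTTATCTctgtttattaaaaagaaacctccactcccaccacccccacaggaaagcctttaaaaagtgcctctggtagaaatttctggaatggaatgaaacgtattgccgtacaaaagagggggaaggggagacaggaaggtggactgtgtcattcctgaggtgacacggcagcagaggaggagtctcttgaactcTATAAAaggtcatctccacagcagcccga
The motifs searched on both strands were the TATA box (TATAAA), the CCAAT box (CCAAT), the Sp1 box (GGGCGG), the GATA core (AGATAA), a Cdx core (TTTATG) and the AP-1 site (TGACTCA), 6 in all, and no 2 matches overlapped. Krt20 held TATAAA on the gene's strand 29 bases before its start, and AGATAA on the opposite strand 223 bases before it. Krt8 held AGATAA on its own strand 239 bases before its start. Krt18 held none of the 6 sequences. Over the 32851 promoters of 27025 genes in the table, TATAAA was in 12.4%, AGATAA in 9.99%, CCAAT in 33.8%, GGGCGG in 32.7%, TTTATG in 10.8% and TGACTCA in 4.46%. The 250 bases of Krt18 held 12 CpG dinucleotides, those of Krt20 5 and those of Krt8 3, beside a median of 6 over all promoters. Their GC content was 60.4% for Krt18, 58.0% for Krt8 and 48.0% for Krt20, beside a median of 52.4%. A match describes the letters of the window and no bound factor.

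The ChIP libraries held 34.6 to 54.6 M tags, their inputs 35.0 to 38.8 M, and the lists 35614 to 52510 peaks, which covered 38.8 to 76.1 Mb. The enterocyte lists covered 38.8 Mb each and ISC replicate 2 covered 76.1 Mb, so covered lengths are given below as deposited and the tests used lengths scaled to a common total. Counting errors of reads could not be given from peak lists, and the precision rests on 2 libraries a group, for which an exact permutation test of a single value cannot give p under 0.333. The p-values below come from limma, fitted to log2(scaled covered bp + 500) over every window of the same width in the genome, with Benjamini-Hochberg adjustment and a threshold of 0.05. They set each difference against the spread between these libraries within groups, pooled over the 4 groups and moderated over all windows.

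At Krt8 and Krt18 both enterocyte libraries lay below all others in covered length as deposited, but they overlapped E14.5 after scaling to a common total. In the window of these genes, which encode the partners of one filament, peaks covered 29.7 and 36.3 of 50 kb in the E12.5 libraries, 31.6 and 28.3 kb in the E14.5 libraries, 34.4 and 43.2 kb in ISC, and 19.0 and 18.3 kb in enterocytes. As deposited, both enterocyte libraries lay below the other 6, and the 2 embryonic groups overlapped. On the scaled lengths used for the tests, enterocytes (26.4 and 25.4 kb) overlapped E14.5 (26.1 and 26.7 kb). These are bulk samples, so fewer cells of a type with the mark and less of the mark per cell cannot be told apart. The window had more covered length than 99.4 to 99.98% of the windows of its width in each library.

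Between enterocytes and ISC, the covered length of Krt8 and Krt18 averaged 18.7 ± 0.501 kb in enterocytes and 38.8 ± 6.21 kb in ISC (SD, n = 2 each). After scaling it was 26.4 and 25.4 kb in enterocytes, against 36.2 and 30.6 kb in ISC. It fell by 0.35 on the log2 scale (SE 0.10, limma adjusted p = 0.033). Of the 19443 windows of this width, 5191 were called lower and 2756 higher, 40.9% in either direction. The shares of windows called that follow are likewise for either direction. Without scaling the fall was larger, at −1.03 (limma adjusted p = 0.005759), while the median of all windows then stood at −0.48. The scaled call was lost when any of 5 libraries was left out, namely either E14.5 library (adjusted p = 0.06933 and 0.0698), ISC replicate 1 (0.1124) or either enterocyte library (0.08006 and 0.1068).

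In the embryo, scaled covered length at Krt8 and Krt18 fell by 0.38 in E14.5 relative to E12.5 (SE 0.10, limma adjusted p = 0.03613, with 27.9% of windows called). After scaling it was 26.1 and 26.7 kb in E14.5, against 36.6 and 32.6 kb in E12.5, whereas the deposited lengths overlapped. In ISC it rose by 0.33 relative to E14.5 (SE 0.10, limma adjusted p = 0.04396, with 40.7% of windows called). Neither call held without scaling, at −0.13 (adjusted p = 0.75) for E14.5 minus E12.5 and 0.36 (adjusted p = 0.1816) for ISC minus E14.5. Each was also lost when any of 5 of the 8 libraries was left out. These were both E12.5 and both E14.5 libraries and enterocytes replicate 1 for E14.5 minus E12.5, and both E14.5 libraries, ISC replicate 1 and both enterocyte libraries for ISC minus E14.5.

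Krt19, a small type I keratin that lacks the usual tail, had a broad domain in ISC and at E14.5. Peaks covered 18.3 and 22.7 of 40 kb in the E12.5 libraries, 28.2 and 26.9 kb in the E14.5 libraries, 27.4 and 28.3 kb in ISC, and 11.3 and 18.8 kb in enterocytes. As deposited, the ISC and E14.5 libraries lay above all others, and the enterocyte and E12.5 ranges overlapped. After scaling this order did not hold, with 22.7 and 20.4 kb at E12.5 and 23.3 and 25.4 kb at E14.5. ISC replicate 2 then had 20.0 kb, below both E12.5 libraries, and enterocytes replicate 2 had 26.0 kb, above both E14.5 libraries. The window ranked above 97.6 to 99.94% of the windows of its width.

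None of the 3 steps passed the test at Krt19 after scaling. Enterocytes averaged 15.0 ± 5.27 kb and ISC 27.8 ± 0.655 kb (SD, n = 2 each), a scaled log2 difference of −0.24 (SE 0.27, limma adjusted p = 0.5839, with 40.0% of windows called). Without scaling the difference was −0.91 and passed (limma adjusted p = 0.03007). The scaled lengths were 15.7 and 26.0 kb in enterocytes, against 28.7 and 20.0 kb in ISC, so that replicates differed more than the group means. As deposited, however, the ISC libraries were close, at 27.4 and 28.3 kb. Both covered every base from 100000000 to 100020000, where no length can be gained. Their lists covered 51.2 and 76.1 Mb in all, and scaling by these totals sets the gap between them. ISC minus E14.5 gave −0.02 (adjusted p = 1, with 39.9% of windows called), and E14.5 minus E12.5 gave 0.17 (adjusted p = 0.7169, with 27.2% of windows called), both by limma.

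Krt20, the keratin of differentiated villus cells, was the one locus of the 3 with more covered length in enterocytes than in ISC. Peaks covered 6.61 and 7.34 of 35 kb in the E12.5 libraries, 7.42 and 6.30 kb in the E14.5 libraries, 4.05 and 7.12 kb in ISC, and 14.9 and 10.4 kb in enterocytes. Both enterocyte libraries lay above the other 6, and E12.5, E14.5 and ISC overlapped. The window ranked above 99.2 and 97.7% of the windows of its width in the enterocyte libraries, and above 83.0 to 94.9% in the other 6.

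Krt20 averaged 12.6 ± 3.18 kb in enterocytes and 5.58 ± 2.17 kb in ISC (SD, n = 2 each). Scaled, it was 20.6 and 14.3 kb in enterocytes, against 4.26 and 5.03 kb in ISC. The log2 difference was 1.79 (SE 0.19, limma adjusted p = 0.0009959), larger than that of 97.0% of the windows tested, with 39.6% of windows called. It was 1.13 without scaling (limma adjusted p = 0.02666) and passed in every other setting and with any library left out. Of the called windows of this width, 34.7% were higher in enterocytes, and 11.8% without scaling. For the Krt8 and Krt18 width the split was 34.7% and 10.6%, and for the Krt19 width 34.9% and 11.1%. The differences between the 3 loci were not themselves tested.

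The 2 earlier steps did not pass at Krt20. E14.5 minus E12.5 gave −0.26 (limma adjusted p = 0.4135, with 26.7% of windows called), and ISC minus E14.5 gave −0.35 (limma adjusted p = 0.2248, with 39.8% of windows called).

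**Figure D1:**
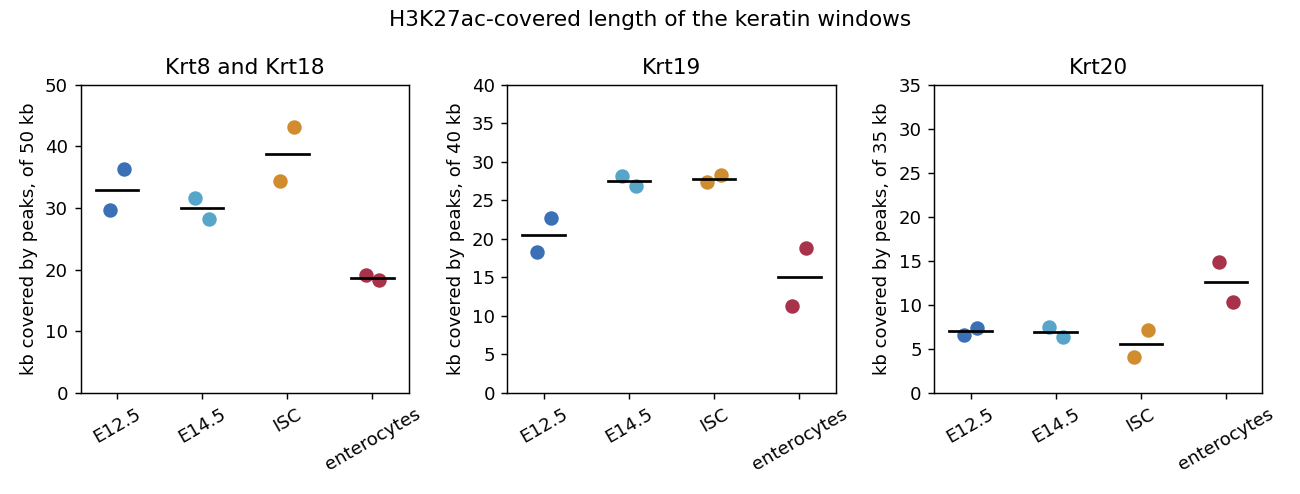
Length covered by peaks in kb (vertical axis, up to the width of the window) in each of the 8 libraries (points) with group means (lines), for the 3 windows. As deposited, enterocyte libraries are lowest at Krt8 and Krt18, at 19.0 and 18.3 kb, and highest at Krt20, at 14.9 and 10.4 kb.

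Set by age, the Krt20 window passed for adult minus embryo among the 3, but not firmly. It averaged 9.09 ± 4.62 kb in the adult libraries and 6.92 ± 0.549 kb in the embryonic ones (SD, n = 4 each), a scaled log2 difference of 0.41 (SE 0.14, limma adjusted p = 0.0384 from the fit of 4 group means, with 67.8% of windows called). It did not pass in a fit of 2 groups of 4 libraries (limma adjusted p = 0.4991) or without scaling (limma adjusted p = 0.3517). The ISC mean, 5.58 kb, lay below the embryonic mean. The adult libraries ran between 4.05 and 14.9 kb and enclosed the embryonic range, and the call was lost without any of 6 libraries, all but E12.5 replicate 1 and enterocytes replicate 2. Krt8 and Krt18 gave −0.04 (adjusted p = 0.6243, with 69.0% of windows called) and Krt19 −0.05 (adjusted p = 0.8166, with 68.2% of windows called), both by limma. The median of all windows in this contrast was between −0.26 and −0.24 over the 3 widths.

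**Figure D2:**
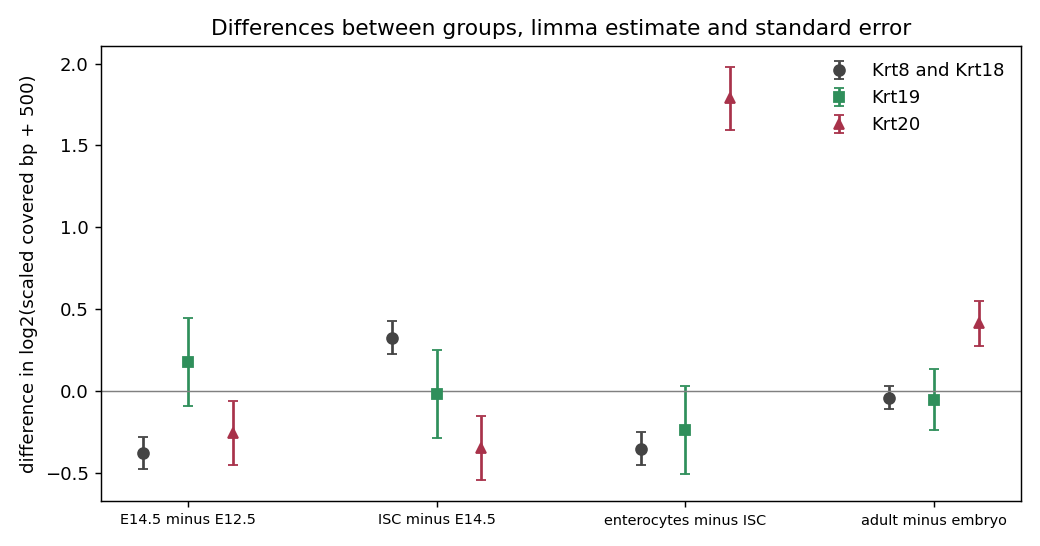
Difference in log2(scaled covered bp + 500) for each locus (symbols) in the 4 comparisons, with the limma standard error as bars. The Krt20 value for enterocytes minus ISC is 1.79, and the Krt8 and Krt18 value there is −0.35.

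The peaks of the loci merged into 20 regions, of which 6 had a peak in all 8 libraries and 7 in 1 library only. Lengths within regions are given as deposited and were not scaled, and the ISC lists covered more in all than the enterocyte lists. At Krt8 and Krt18 the longest region, chr15:101832223-101851000, was covered over 11.9 and 12.3 kb in enterocytes, against 15.4 and 18.3 kb in ISC. On its lower side, chr15:101820418-101832087 was covered over 5.91 and 4.89 kb in enterocytes, against 10.7 and 11.7 kb in ISC, 5.63 and 4.78 kb in the E14.5 libraries, and 3.22 and 6.51 kb in the E12.5 libraries. There, as deposited, the ISC libraries stood above all others, and the enterocyte and embryonic libraries overlapped. On the higher side, chr15:101851667-101862334 kept 1.22 and 1.18 kb in enterocytes, against 6.19 and 10.4 kb in ISC, 7.72 and 7.65 kb in the E14.5 libraries, and 8.33 and 9.06 kb in the E12.5 libraries. The enterocyte libraries were below every other library in that region. By the order of genes in the GRCm38.p6 table, Krt8 is on the lower side with Krt78 next to it, and Krt18 on the higher side with Eif4b, a translation initiation factor, next to it.

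Regions were also counted as gained or lost where both libraries of one group and neither of the other had a peak. In enterocytes relative to ISC, 16 of the 20 regions had a peak in either group. Of these, 2 were gained, both at Krt20, and 3 were lost, all at Krt8 and Krt18. Over the genome 5.88% of the regions with a peak in either group were gained and 18.4% lost in that step. The lost regions included chr15:101863999-101865737, with no peak in either enterocyte library, against 1.04 and 1.49 kb in ISC. They also included chr15:101868890-101877467, with none in enterocytes, against 7.51 and 8.58 kb in ISC, most of it beyond the window's edge, and this loss held under every setting tried on the regions. The third, chr15:101818425-101820184, likewise lies mostly outside, and had none in enterocytes, against 0.814 and 1.38 kb in ISC. It and chr15:101863999-101865737 were no longer lost when peaks within 1 kb were merged, and the loss at 101863999 also ended with a −log10 q minimum of 10.

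The gained regions at Krt20 were short. The first, chr11:99292707-99293801, had 1.02 and 0.432 kb in enterocytes and no peak in any other library. That gain ended with a −log10 q minimum of 10 and on merging within 1 kb. The second, chr11:99274857-99276170, had 1.25 and 0.727 kb in enterocytes, against none in ISC, and 0.553 ± 0.391 kb at E14.5 (SD, n = 2), against none at E12.5. It was therefore also the 1 region gained in E14.5 relative to E12.5 (of 15 with a peak in either group, beside 11.2% over the genome) and the 1 lost in ISC relative to E14.5 (of 12, beside 13.2%). Its gain in enterocytes held under every setting tried, but both of these calls ended with −log10 q of at least 10 and with equal numbers of peaks per library. A further Krt20 region, chr11:99309564-99310178, was the 1 lost in E14.5, with none there, against 0.615 and 0.514 kb at E12.5 (6.37% lost over the genome). That call ended with −log10 q of at least 10 and on merging within 1 kb. No region of the loci was gained in ISC relative to E14.5 (9.87% gained over the genome). None was present in all adult and no embryonic libraries or the reverse, beside 1.95% and 5.08% over the genome. The counts at the loci were not tested against these shares.

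**Figure D3:**
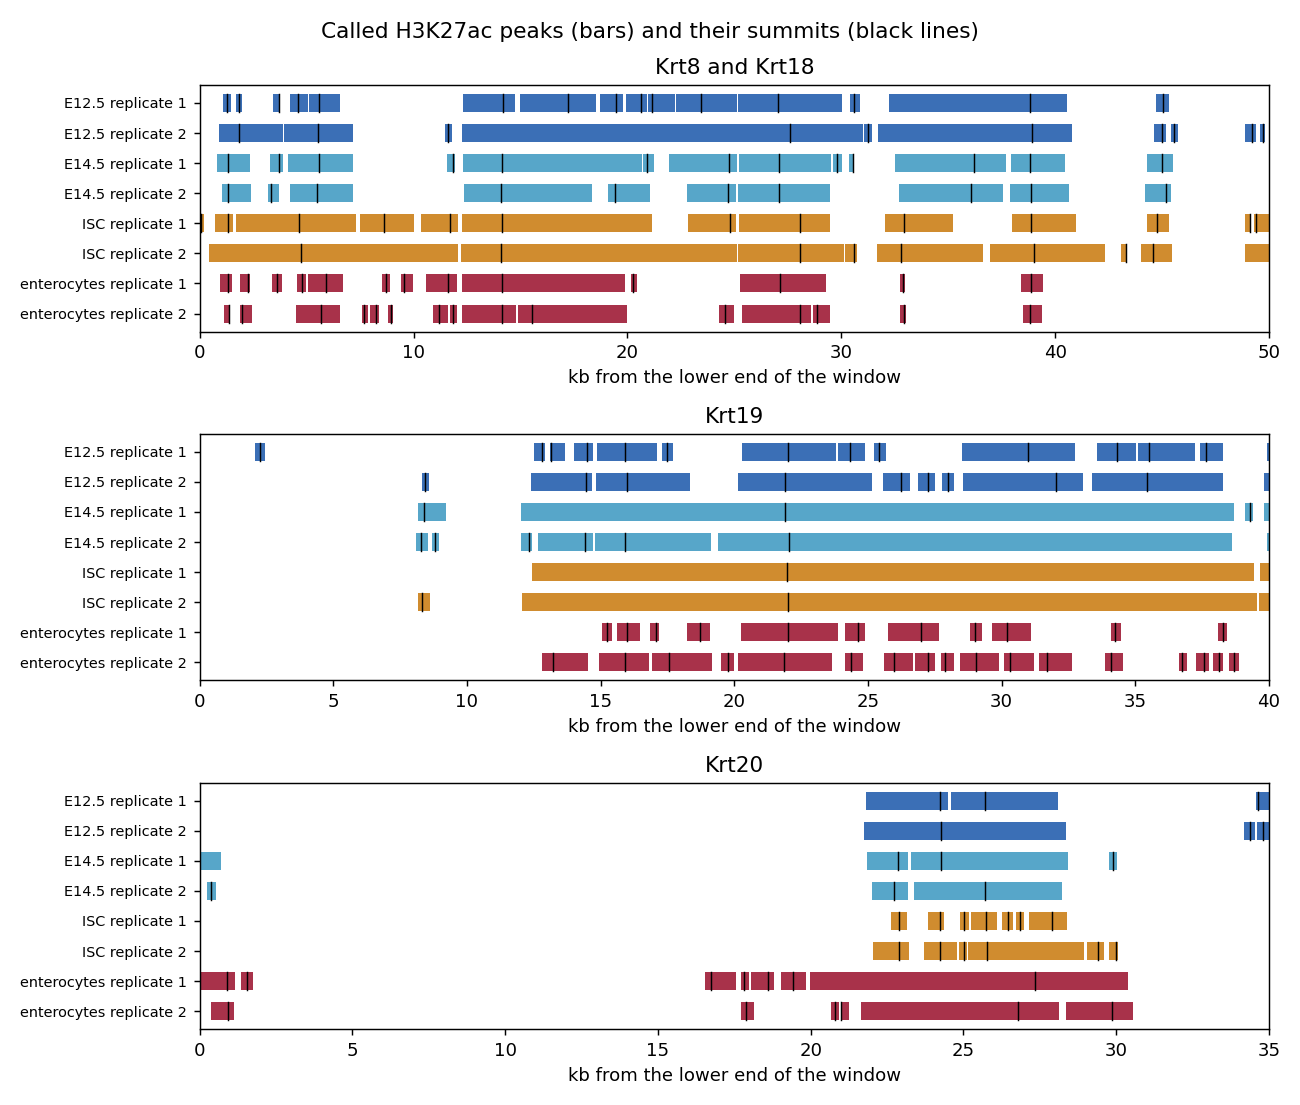
Called peaks (bars) and their summits (black lines) in each library (rows), by distance in kb from the lower end of each window. Enterocyte peaks reach over more of the Krt20 window than ISC peaks, and over less of the Krt8 and Krt18 window, where ISC replicate 1 also has gaps.

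The main body of Krt20 was chr11:99294978-99305558, covered over 10.4 and 9.19 kb in enterocytes, against 4.05 and 7.12 kb in ISC, 6.73 and 6.02 kb in the E14.5 libraries, and 6.17 and 6.60 kb in the E12.5 libraries. Bases covered in both enterocyte libraries and in neither ISC library made up 3.16 kb at Krt20, and the reverse made up 0 kb. At Krt8 and Krt18 the same counts were 0 kb and 13.1 kb, and at Krt19 0 kb and 7.64 kb. As a share of the bases with a peak in either group, enterocyte-only bases were 20.9% at Krt20 and 0% at the others, beside 4.82% over the genome. ISC-only bases were 0% at Krt20, 30.1% at Krt8 and Krt18 and 7.64 of 28.3 kb at Krt19, beside 23.0% over the genome. These lengths are unscaled, and the ISC lists covered more in all. A core was covered in all 8 libraries at each locus: 13.6 kb at Krt8 and Krt18, 7.72 kb at Krt19 and 3.68 kb at Krt20.

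At Krt19 nearly all of the marked length was 1 region, chr11:99997011-100024544, covered over 15.0 ± 5.26 kb in enterocytes, against 27.2 ± 0.325 kb in ISC (SD, n = 2 each). The next region, chr11:100024639-100030939, runs past the window's edge and had 4.99 and 5.22 kb in enterocytes, against 6.19 and 6.30 kb in ISC.

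Summits, the points of highest pileup, were linked into clusters where they lay within 300 bp. Only 1 cluster at Krt8 and Krt18 (101858812 to 101859034 on chromosome 15) and 1 at Krt19 (100006849 to 100007054 on chromosome 11) had a summit from all 8 libraries. The best-shared cluster of Krt20, from 99299219 to 99299256, had summits from 5 libraries and from neither enterocyte library. Both enterocyte libraries nonetheless covered that stretch, with peaks of 10.4 and 6.48 kb whose summits lay at 99302353 and 99301779. A missing summit is therefore not a missing peak. The authors' own fold enrichment, which describes a peak within its list, was 13.2 to 29.2 in the Krt19 cluster and 5.32 to 28.1 in that of Krt8 and Krt18. By the authors' −log10 q, the best peak of Krt20 stood above 94.5 and 79.9% of its list in the enterocyte libraries, and above 65.1 to 86.1% in the other 6. The best peaks of Krt8 and Krt18 stood above 93.3 to 99.5% of their lists.

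To see where within a window the length differed, all 5 kb bins of the genome were fitted in the same way, a choice made after seeing the data. Of the 25 bins of the loci, 22 had peaks in at least 2 libraries: 10 at Krt8 and Krt18, 7 at Krt19 and 5 at Krt20. In enterocytes relative to ISC, limma called 5 with more covered length, all at Krt20, and 5 with less, all at Krt8 and Krt18. Over the genome 13.1% of bins were called with more and 22.4% with less. One Krt20 bin, from 99290000, passed the filter through the enterocyte libraries alone, with 2.89 and 0.432 kb there, and so had to differ. Without scaling 3 bins were called with more, again all at Krt20, and 10 with less, of which 7 were at Krt8 and Krt18 and 3 at Krt19. The split by locus was not clean elsewhere. Without ISC replicate 1, 7 bins were called with more, 4 at Krt20, 2 at Krt8 and Krt18 and 1 at Krt19. Bins of Krt19 were also among those with less: 2 with −log10 q of at least 10, 1 with equal numbers of peaks and 2 without enterocytes replicate 2.

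The bin of Krt8 and Krt18 from 101860000 had no peak in either enterocyte library, against 1.70 and 3.58 kb in ISC. The bin from 101850000 had 0.222 and 0.295 kb in enterocytes, against 2.98 and 3.96 kb in ISC. The bin from 101835000, by contrast, was covered over 4.90 and 5.00 kb in enterocytes and fully in both ISC libraries. After scaling it was 0.61 higher in enterocytes on the log2 scale and did not pass (limma adjusted p = 0.06283). The bins from 101830000 (0.37) and 101845000 (0.44) were likewise above 0 and did not pass (limma adjusted p = 0.1327 and 0.1132). Bins that are full cannot gain length, and scaling alone then sets their difference.

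In the earlier steps the bin calls changed with the libraries and settings used. In ISC relative to E14.5, limma called 5 bins with more covered length, all at Krt8 and Krt18, and 2 with less, 1 at Krt19 and 1 at Krt20, beside 16.1% and 18.8% of bins over the genome. The 5 became 1 or 2 without any single library and 2 without scaling. In E14.5 relative to E12.5 it called 1 bin with more, at Krt19, and 2 with less, 1 at Krt8 and Krt18 and 1 at Krt20, beside 12.9% and 9.83% over the genome. No bin was called with more without either E12.5 library, without either E14.5 library or without scaling. Without either enterocyte library the Krt19 bin was lost and a Krt20 bin was called in its place.

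**Figure D4:**
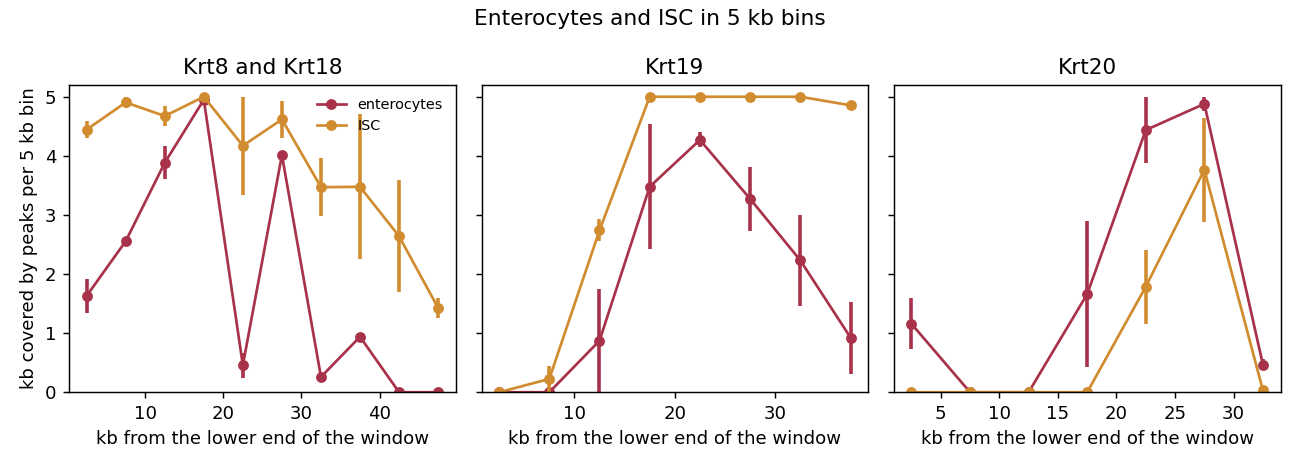
Mean length covered by peaks per 5 kb bin (points, with bars for the range of 2 libraries) in enterocytes and ISC, by distance in kb from the lower end of each window. Enterocytes lie above ISC in the Krt20 bins with peaks and at or below ISC in all bins of the other windows.

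Krt20 and Krt19 lie in the same keratin cluster of chromosome 11, and the 675 kb between their windows were covered over 1.06 to 3.42% in the 8 libraries. In the GRCm38.p6 table this stretch holds 50 protein-coding genes, of which 12 are keratins and 23 keratin-associated proteins of hair. Krt12, a keratin of the cornea, and Krt23 are the neighbours of Krt20, and Krt15 and Krt9 are those of Krt19. In the 200 kb on either side of the windows, the mean unscaled covered share was lower in enterocytes than in ISC in all 6 flanks. Above Krt8 and Krt18 it was 6.71% in enterocytes, against 16.1% in ISC, and below 4.01%, against 5.31%. Above Krt20 it was 4.34% in enterocytes, against 7.57% in ISC, the opposite direction to the unscaled length of the Krt20 window, and below it 1.73%, against 2.49%. Above Krt19 it was 7.21% in enterocytes, against 10.5% in ISC, and below it 0%, against 1.85%. The enterocyte lists covered 38.8 Mb each over the genome, against 51.2 and 76.1 Mb in ISC. Scaled shares of the flanks were not computed, so a direction apart from the size of the lists is not shown.

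The windows whose 8 scaled values were most like a locus were found by Euclidean distance over the genome. Their lengths are given here as unscaled group means, which are not the values that were matched. For Krt20 the nearest was chr11:75265000-75300000, with 12.1 kb in enterocytes, 7.06 kb in ISC, 6.33 kb in E14.5 and 6.59 kb in E12.5 on average. For Krt8 and Krt18 it was chr15:77620000-77670000, with 18.3 kb in enterocytes and 38.2 kb in ISC. For Krt19 it was chr8:124825000-124865000, with 17.8 kb in enterocytes and 27.7 kb in ISC.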

How the data were processed

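H3K27ac ChIP-seq peak lists of 8 libraries, 2 in each of 4 groups, were analysed. The inputs were used by the authors in calling peaks. Per the submitters' processing notes, Bowtie 1.1.2, SAMtools 1.2, bcl2fastq 1.8.4 and MACS2 were used with build mm9. Per the file headers, MACS 2.1.0.20140616 called peaks for each library separately against its input, at a q-value of 0.05 with 51 bp tags. The deposited lists give positions, the pileup signal, −log10 p and −log10 q values and the fold enrichment ratio of each peak, per the file headers.

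From these, the covered bp of each window was computed with Python 3.11.15, scaled to a common total covered length per library, and fitted with limma 3.58.1 (R 4.3.3; lmFit, contrasts, eBayes with trend and robust) as log2(bp + 500), with 4 group means. Each locus was 1 window of a genome grid of its own width; those with peaks in fewer than 2 libraries were left out. The script was tested on simulated data. Peaks that shared at least 1 bp or touched, from any library, formed 1 region.

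The members and lists were chosen with earlier results of these data known. The regions named are, in each window, the 2 with the greatest mean covered length and up to 4 others that were gained or lost, the longest first; chr15:101851667-101862334 was named after its values were seen. Alternatives were other scalings, pseudocounts, peak filters, window widths, a replicate block and leaving out each library. The gene table is on GRCm38.p6, coordinates were not converted, and it served only for names and gene order.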

Additional observations from a re-analysis of the deposited data

How the results depend on the processing

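The rise of Krt20 in enterocytes relative to ISC passed in all 9 other settings (1.13 to 1.97 on the log2 scale) and with any library left out (1.53 to 2.04). The differences of E14.5 minus E12.5 at Krt19 and Krt20, and of ISC minus E14.5 at Krt20, kept their sign and never passed. That held in every setting and with any library left out. The remaining limma results were less firm, and the cause was not tested. At Krt8 and Krt18, E14.5 minus E12.5 missed the threshold without scaling (−0.13), with −log10 q of at least 10 (−0.35), with equal numbers of peaks (−0.26) and by limma without trend and robust (−0.38). There, ISC minus E14.5 missed it without scaling (0.36), with −log10 q of at least 10 (0.32), with equal numbers of peaks (0.32), with a pseudocount of 100 bp (0.33) and without trend and robust (0.33), and enterocytes minus ISC missed it without trend and robust (−0.35). Krt20 for adult minus embryo missed it without scaling (0.24), with −log10 q of at least 10 (0.21), with equal numbers of peaks (0.35) and with 2 groups of 4 libraries (0.41). Krt19 turned to 0.0153 without scaling for ISC minus E14.5 and to 0.0297 with windows 5 kb wider for adult minus embryo, and enterocytes minus ISC passed without scaling (−0.91).

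With a library left out, Krt8 and Krt18 ranged over −0.46 to −0.30 (E14.5 minus E12.5), 0.21 to 0.45 (ISC minus E14.5), −0.47 to −0.23 (enterocytes minus ISC) and −0.10 to 0.0186 (adult minus embryo). Krt19 ranged over 0.10 to 0.25, −0.28 to 0.24, −0.60 to 0.12 and −0.23 to 0.12 in the same order. Krt20 ranged over −0.41 to −0.11 (E14.5 minus E12.5), −0.46 to −0.24 (ISC minus E14.5) and 0.29 to 0.54 (adult minus embryo).

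Bins with more covered length numbered 0, 2 and 3 for E14.5 minus E12.5 without scaling, with −log10 q of at least 10 and with equal numbers of peaks, and those with less numbered 1 without scaling. For ISC minus E14.5 they numbered 2 and 1 (more) and 0 and 1 (less) without scaling and with −log10 q of at least 10. For enterocytes minus ISC they were 3 (more) and 10 (less) without scaling, and 8 (less) with −log10 q of at least 10. With a library left out the counts ran from 0 to 1 (more) and 2 to 3 (less), 1 to 2 and 0 to 2, and 4 to 7 and 4 to 6 for the 3 steps.

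The correlations of same-numbered libraries' deviations ran from −0.19 to 0.20 over pairs of groups, each taken at the 3 window widths. The 3 of 18 over 0.1 were all E12.5 with ISC (0.1965, 0.198 and 0.1952), so the 18 values are not independent. They gave no clear sign of pairing by replicate number and cannot settle it. With the replicate block, Krt20 for enterocytes minus ISC was 1.79 (limma adjusted p = 0.002327), and no call of the 12 changed. Covered length says where peaks were called and not how much acetylation a base carries, and full windows cannot gain length. The called regions were recomputed in 3 settings, giving 24 results, of which 11 ended a call: 5 with the stricter peak filter, 4 on merging within 1 kb and 2 with equal numbers of peaks.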
